A study of Homo sapiens with 6 samples.

Results

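Peaks of newly made DNA that lay over protein-coding exons, away from promoters, were taken from nascent DNA sequencing of control and ERCC6L2-/- U2OS cells. U2OS is a human osteosarcoma cell line, and ERCC6L2 is an ATPase of the SNF2 family that acts in the repair of DNA breaks. Each genotype had 3 samples, called WT and KO in the labels, and every sample was given the thymidine analogue BrdU for 2 h before the labelled DNA was pulled down with an antibody. The ERCC6L2-/- lines were grown from single cells after gene editing, and the labels do not say which clone a sample came from. The cells were asynchronous, so the peaks can come from different stages of S phase. The data were 1 consensus peak list per genotype, each merging its 3 samples, so neither a spread between replicates nor a sample's depth in reads can be given. Every interval given is a 95% interval that covers counting error only, and every test compares sets of peaks, not the genotypes.

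A peak was counted as a coding-exon peak where it held at least 1 coding base of a protein-coding gene (GENCODE release 44, hg38) and lay more than 2 kb from the start of every protein-coding gene. On chromosomes 1 to 22 and X, 236 of 9631 control peaks (2.45%) and 163 of 7943 ERCC6L2-/- peaks (2.05%) met this rule, 399 peaks in all, at 292 loci in 271 genes. The distance rule set aside a further 46 control and 39 ERCC6L2-/- peaks with coding bases near a gene start. The nearest control peak kept was 2248 bases from a gene start, at THAP8, and the nearest left out was 1988 bases away, at SYT3. In the ERCC6L2-/- list these were 2014 bases, at SPDYE3, and 1982 bases, at SYT3. Of the 399 peaks, 150 nevertheless lay within 2 kb of the start of some transcript, such as an internal start.

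Coding exons are mostly short and set in long introns, so a peak usually reaches past an exon. The exceptions are genes with a very long exon, many of which encode repetitive proteins such as mucins, cornified envelope proteins and coiled-coil proteins. In coding DNA the base composition follows the protein. The codons of glutamate (GAA and GAG) and lysine (AAA and AAG) hold purines only. A stretch of protein rich in these residues is therefore written in DNA with mostly purines on one strand and pyrimidines on the other. Serine, threonine and proline codons hold many pyrimidines.

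The coding sequence under the peaks is shown first for 5 peaks found in both lists, chosen because they hold long coding tandem repeats or, in WDR87, a purine run in a single-copy exon. All are from the hg38 reference, are read 5′ to 3′ on the coding strand and lie wholly in coding sequence. In WDR87 the capitals mark the first 90 bases of an unbroken run of 99 purines. In the other 4, capitals and lower case alternate from one repeat unit to the next. The units were 90 bases in TCHH (trichohyalin, a hair follicle protein), 21 in GOLGA6L22 (a golgin-like coiled-coil gene), 108 in IGFN1 (a muscle protein with immunoglobulin-like domains) and 51 in MUC3A (a membrane mucin), each the shortest period with at least 80% identity over the printed stretch.
WDR87, chr19:37886729-37886833, minus strand: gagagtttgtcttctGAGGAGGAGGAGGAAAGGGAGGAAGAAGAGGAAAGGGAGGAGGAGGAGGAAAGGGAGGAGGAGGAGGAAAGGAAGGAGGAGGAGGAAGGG
TCHH, chr1:152110234-152110413, minus strand: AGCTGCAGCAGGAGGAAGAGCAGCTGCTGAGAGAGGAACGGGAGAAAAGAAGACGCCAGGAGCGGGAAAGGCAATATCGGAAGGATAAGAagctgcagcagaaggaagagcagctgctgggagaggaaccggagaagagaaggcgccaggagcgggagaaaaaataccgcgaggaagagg
GOLGA6L22, chr15:22466044-22466148, plus strand: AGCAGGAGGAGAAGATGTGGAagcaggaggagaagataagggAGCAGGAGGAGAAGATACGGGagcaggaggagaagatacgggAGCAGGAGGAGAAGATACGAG
IGFN1, chr1:201209543-201209758, plus strand: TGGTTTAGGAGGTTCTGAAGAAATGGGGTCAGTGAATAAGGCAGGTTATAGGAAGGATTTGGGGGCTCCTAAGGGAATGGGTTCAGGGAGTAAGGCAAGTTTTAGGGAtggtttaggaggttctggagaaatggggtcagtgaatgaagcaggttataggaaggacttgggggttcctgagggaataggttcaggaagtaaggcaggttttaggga
MUC3A, chr7:100958328-100958531, plus strand: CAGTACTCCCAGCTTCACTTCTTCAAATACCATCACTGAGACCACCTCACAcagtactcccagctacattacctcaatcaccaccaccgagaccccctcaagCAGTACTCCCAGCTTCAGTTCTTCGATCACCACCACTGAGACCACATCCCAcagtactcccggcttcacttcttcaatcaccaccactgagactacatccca

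The next 4 came from peaks that were in the control list only, and hold all 4 coding tandem repeats of that class. The units were 21 bases in ZAN (zonadhesin, a sperm protein), 42 in CALD1 (caldesmon, an actin-binding protein), 18 in PNMA6E (of the paraneoplastic Ma antigen family) and 69 in MUC7 (a salivary mucin).
ZAN, chr7:100751848-100751952, plus strand: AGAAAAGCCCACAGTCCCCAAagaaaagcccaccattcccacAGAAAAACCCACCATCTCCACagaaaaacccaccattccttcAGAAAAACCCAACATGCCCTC
CALD1, chr7:134933723-134933848, plus strand: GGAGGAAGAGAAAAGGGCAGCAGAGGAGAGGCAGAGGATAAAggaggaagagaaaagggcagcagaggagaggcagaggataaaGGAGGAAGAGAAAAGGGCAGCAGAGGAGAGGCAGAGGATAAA
PNMA6E, chrX:153398328-153398417, minus strand: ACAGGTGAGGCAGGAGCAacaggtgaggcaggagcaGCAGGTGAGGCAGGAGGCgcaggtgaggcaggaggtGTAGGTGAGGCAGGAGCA
MUC7, chr4:70481223-70481498, plus strand: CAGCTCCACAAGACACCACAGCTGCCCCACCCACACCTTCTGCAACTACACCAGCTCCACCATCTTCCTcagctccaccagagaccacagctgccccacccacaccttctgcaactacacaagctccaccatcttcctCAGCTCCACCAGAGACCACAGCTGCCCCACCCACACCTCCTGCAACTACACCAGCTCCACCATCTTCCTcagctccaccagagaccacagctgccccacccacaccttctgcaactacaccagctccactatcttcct

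The last 2, of 6 coding tandem repeats in peaks of the ERCC6L2-/- list only, had units of 30 bases in MUC19 (a gel-forming mucin) and 21 in GOLGA6L4 (a golgin-like gene). The printed stretches of CALD1 and GOLGA6L22 were 90.5% and 86.7% purines, and those of MUC3A and MUC7 37.3% and 35.1%. WDR87 was chosen after its values were seen.
MUC19, chr12:40484039-40484278, plus strand: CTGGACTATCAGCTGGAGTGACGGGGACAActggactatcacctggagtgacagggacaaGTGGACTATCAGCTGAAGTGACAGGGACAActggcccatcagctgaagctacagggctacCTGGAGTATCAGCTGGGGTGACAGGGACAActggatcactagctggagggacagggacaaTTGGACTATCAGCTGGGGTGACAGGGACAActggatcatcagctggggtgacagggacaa
GOLGA6L4, chr15:84240047-84240151, plus strand: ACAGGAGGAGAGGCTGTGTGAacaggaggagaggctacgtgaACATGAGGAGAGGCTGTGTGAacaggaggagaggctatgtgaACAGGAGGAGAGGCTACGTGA

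The coding-exon peaks fell into 2 kinds, with almost nothing between them. In 309 peaks less than 50% of the bases were coding, and in 90 peaks at least 50% were. Only 14 peaks lay between 30% and 80%, while 82 were at least 90% coding. The 309 mostly non-coding peaks caught an ordinary exon at their edge or inside them. Their exons had a median of 135 coding bases. The 90 mostly coding peaks lay at 60 loci in 58 genes, over exons with a median of 1418 coding bases, and 65 of the 90 lay wholly inside one exon's coding sequence. Both kinds were found in both lists and in every class of peak.

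**Figure D1:**
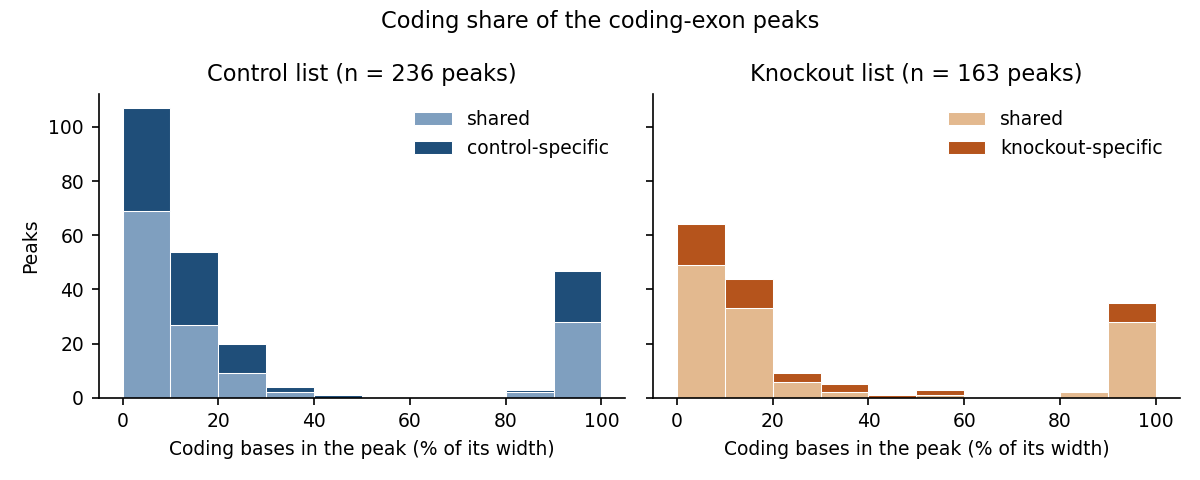
Histograms of the coding bases in each coding-exon peak, as a percent of the peak's width (x axis, bins of 10), with the number of peaks on the y axis, for the control list (left, 236 peaks) and the ERCC6L2-/- list (right, 163 peaks). Light bars are peaks shared by the lists and dark bars are peaks of 1 list only, and both lists show a large group below 40% and a second group above 80%.

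The question put to the lists was whether coding-exon peaks are more often confined to 1 genotype than other peaks. A peak was called shared where it overlapped a peak of the other list by at least 1 base, and list-specific otherwise. Of the 236 control peaks 99 were control-specific, or 41.9%, where 33.7% of all control peaks were. Of the 163 ERCC6L2-/- peaks 42 were knockout-specific, or 25.8%, where 19.5% of all ERCC6L2-/- peaks were. Against the other peaks of the same list the control share was higher by 8.45 points (interval 2.26 to 14.9, Fisher's exact test, two-sided, p = 0.00796, adjusted p = 0.0875 over the 11 tests run). The ERCC6L2-/- share was higher by 6.45 points (0.281 to 13.7, Fisher's exact p = 0.0452, adjusted p = 0.205). Neither difference passed after adjustment, and the peaks of a gene family are not independent of each other.

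The list-specific share varied by location. In control, 35.4% of peaks in gene bodies without a coding base were list-specific, 41.6% of those within 2 kb of a gene start and 31.7% of those outside genes. In ERCC6L2-/-, the same shares were 14.9%, 20.4% and 21.7%. When only peaks that overlap a protein-coding gene were compared, the difference in the ERCC6L2-/- list was 10.5 points (Fisher's exact p = 8.27e-04, unadjusted) and in the control list 6.02 points (p = 0.0693). When only mostly single-copy peaks were compared, those in which less than 50% of the 50-base words occur again in the genome, it was 12.9 points in the ERCC6L2-/- list (Fisher's exact p = 1.00e-04, unadjusted) and 6.76 points in the control list (p = 0.0490). In the ERCC6L2-/- list the coding-exon share itself hardly moved, at 25.8% within genes and 26.3% among single-copy peaks. The share of the other peaks was 15.3% and 13.5%, against 19.3% without these limits. The larger differences thus lay in the peaks compared with, not in the coding-exon peaks. Between the 2 sets of list-specific peaks no difference was detected in how often they lay over coding exons, at 3.05% of control-specific and 2.72% of knockout-specific peaks, a difference of 0.331 points (interval -0.748 to 1.29, Fisher's exact p = 0.583).

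**Figure D2:**
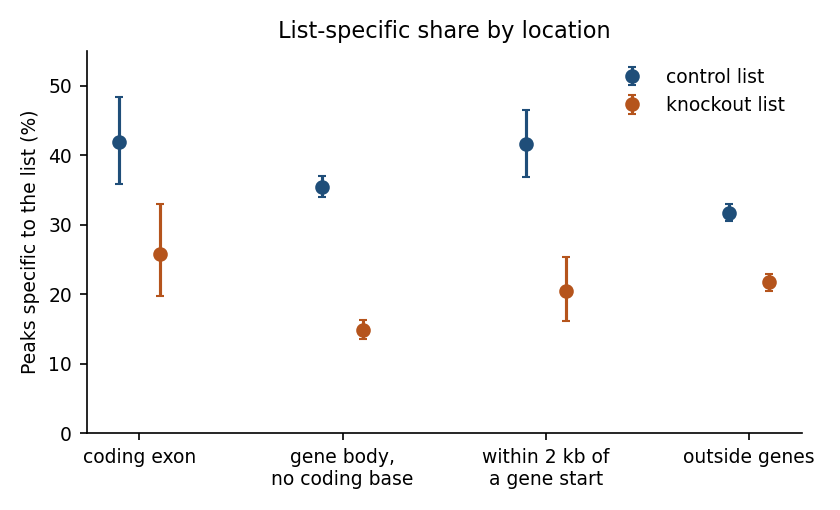
Percent of peaks that are specific to their list (y axis) by location (x axis), for the control list (blue) and the ERCC6L2-/- list (orange), with 95% Wilson intervals as bars. Coding-exon peaks stand at 41.9% and 25.8%, and peaks in gene bodies without a coding base at 35.4% and 14.9%.

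Each peak has a score from the authors, which gives its p-value as −log10. The highest finite score was 311, and stronger peaks are written as infinite. Of the shared control coding-exon peaks 87.6% were at this ceiling, and of the control-specific ones 56.6%. In the ERCC6L2-/- list the shares were 62.0% and 33.3%. Peaks in gene bodies without a coding base were in the same order, with 85.1% and 43.3% in control and 65.6% and 23.7% in ERCC6L2-/-. Of the shared peaks, 107 of 137 in control and 107 of 121 in ERCC6L2-/- overlapped a peak of the other list that was itself a coding-exon peak. List-specific coding-exon peaks mostly lay more than 10 kb from any peak of the other list. Distances for other list-specific peaks are not given here, so these cannot be called long or short. The median distance was 56364 bases for the 99 control-specific and 36554 bases for the 42 knockout-specific peaks, and 14 and 6 of them had such a peak within 10 kb.

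Most of the 90 mostly coding peaks had many more purines than pyrimidines on the coding strand. A median of 73.4% of their coding bases were purines (range 25.9 to 92.7%), and 56 of the 90 had at least 70%. These peaks are not independent, since the 90 lay at 60 loci and a shared locus can count in each list. Of the 90, 23 lay in golgin-like genes, a duplicated family, with a median of 83.1%. Glutamate took a median of 22.9% of their codons. The most extreme peak lay on RPGR, a ciliary protein gene whose defects cause retinal degeneration, in an exon of 1703 coding bases. Its control peak, 1526 bases wide with a score of 282, had 92.7% purines, 50.4% glutamate codons and 23.8% glycine codons. Its ERCC6L2-/- peak, 1522 bases wide with a score of 211, covered nearly the same bases. WDR87 came next by glutamate codons, with 40.8% of codons and 81.2% purines in its control peak.

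Coiled-coil and cytoskeletal genes included TCHH, with 74.9% purines, 31.1% glutamate and 20.7% arginine codons in its control peak, and the neurofilament genes NEFM and NEFH, with 74.8% and 70.7% purines. Genes of RNA processing included PRPF38B, a spliceosome gene, with 76.8% purines and 27.4% arginine codons in the control list. Others were the splicing regulators SRSF4 and NSRP1, both control-specific, with 72.1% and 72.8% purines, and ZC3H13, a subunit of the RNA m6A methyltransferase complex. The control-specific ZC3H13 peak had 82.8% purines, with 39.4% arginine and 32.3% glutamate codons. Chromatin genes included the histone chaperone NASP (70.6%) and the remodeller CHD6 (69.6%), both control-specific. These groupings were made after the peaks were seen.

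A smaller set leaned the other way. In 9 of the 90 peaks under 40% of the coding bases were purines. WNK4, a kinase gene of ion transport, had the lowest value, 25.9% in the control peak, with 26.9% proline and 23.4% serine codons. PRR36, a proline-rich protein gene with a control-specific peak, had 28.2%, with 24.1% proline codons. Both MUC3A peaks had 36.8%, with 37.9% threonine and 27.5% serine codons in the control peak, and the control-specific MUC7 peak had 36.9%, with 25.8% proline and 22.1% threonine codons. In mucins the serine and threonine residues carry the sugar chains.

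**Figure D3:**
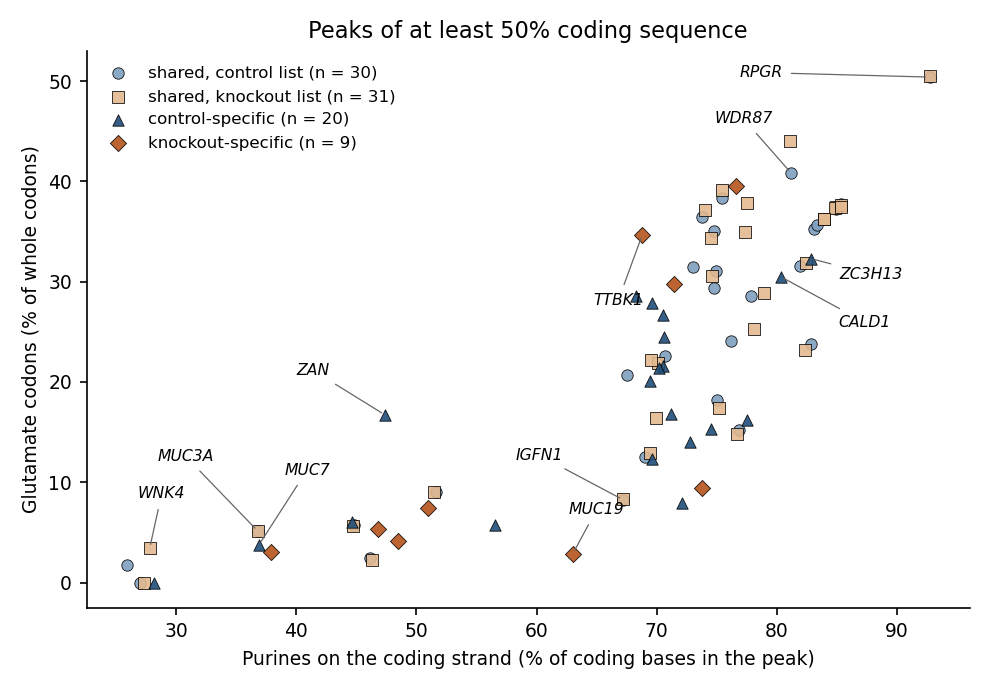
Each point is 1 of the 90 mostly coding peaks, placed by the purine share of its coding strand (x axis, percent of coding bases) and its glutamate codons (y axis, percent of whole codons), with shape and colour by class. Of the 90 points 69 lie above 60% purines, RPGR stands at 92.7%, and a small group with few glutamate codons lies below 40%.

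In all 4 classes of mostly coding peaks the median purine share of the coding strand was above 60%. It was 75.0% over the 30 shared control peaks, 75.4% over the 31 shared ERCC6L2-/- peaks, 70.3% over the 20 control-specific peaks and 63.0% over the 9 knockout-specific peaks. Many shared peaks are the same loci counted in each list, so these values were not tested. Of the mostly coding control peaks 20 of 50 were control-specific, against 42.5% of the mostly non-coding ones. In the ERCC6L2-/- list 22.5% and 26.8% were knockout-specific. The control-specific peaks with the most coding bases were those of ZAN (1262 bases), ERICH3 (974), CALD1 (897), MUC12 (854) and FLG, the filaggrin gene of the skin barrier (845). The knockout-specific ones were MUC19 (1164 bases), the zinc-finger gene ZNF697 (607), FAM90A12P (582), GOLGA6L4 (534) and GOLGA6L9 (485). The MUC7 and CALD1 peaks lay 1394321 and 701208 bases from the nearest ERCC6L2-/- peak, and the MUC19 peak 44518 bases from the nearest control peak. The medians over all control-specific and all knockout-specific coding-exon peaks were 56364 and 36554 bases, so MUC7 and CALD1 are not typical of their class.

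To see how far the purine share marks the covered exons, all coding sequence of the canonical transcripts more than 2 kb from gene starts was cut into windows of 500 bases, whether or not a peak was there. This gave 11737 windows in 5074 genes, with a median of 52.0% purines on the coding strand and 90% of windows between 42.2% and 61.6%. Peaks overlapped 1.02% of all windows in control and 0.869% in ERCC6L2-/-. Of the 6637 windows with 50 to 60% purines, 0.271% overlapped a control peak and 0.256% an ERCC6L2-/- peak. Of the 772 windows with 60 to 70% purines, the shares were 2.85% and 2.33%. Of the 60 windows with 70 to 80% purines, 22 overlapped a control peak (36.7%, interval 25.6 to 49.3) and 18 an ERCC6L2-/- peak (interval 19.9 to 42.5%). Of the 24 windows with at least 80% purines, in 13 genes, 23 overlapped a control peak (95.8%) and 21 an ERCC6L2-/- peak (87.5%).

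The one window of at least 80% purines that overlapped neither list was in HMGN5, which encodes a nucleosome-binding protein, with 87.8% purines. Windows of 1 gene or family are not independent, and 14 of the 24 lay in sequence that occurs again elsewhere in the genome, all 14 in golgin-like genes. Among the mostly single-copy windows the rise was also present. Of 6385 such windows with 50 to 60% purines 0.0783% overlapped a control peak and 0.0783% an ERCC6L2-/- peak, with 1 window in both. Of 56 with 70 to 80% the shares were 35.7% in control and 25.0% in ERCC6L2-/-. Of the 10 with at least 80%, 9 overlapped a control peak and 7 an ERCC6L2-/- peak. The share also rose at the other end. Of all 3957 windows with 40 to 50% purines, 0.657% overlapped a control peak and 0.581% an ERCC6L2-/- peak. Of all 280 windows with 30 to 40% purines, the shares were 2.14% in control and 1.43% in ERCC6L2-/-. Those windows lay in 3 genes in control and 1 gene in ERCC6L2-/-. Further, 3 of only 7 windows with under 30% purines overlapped a control peak and 1 an ERCC6L2-/- peak. These shares describe the windows and were not tested.

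**Figure D4:**
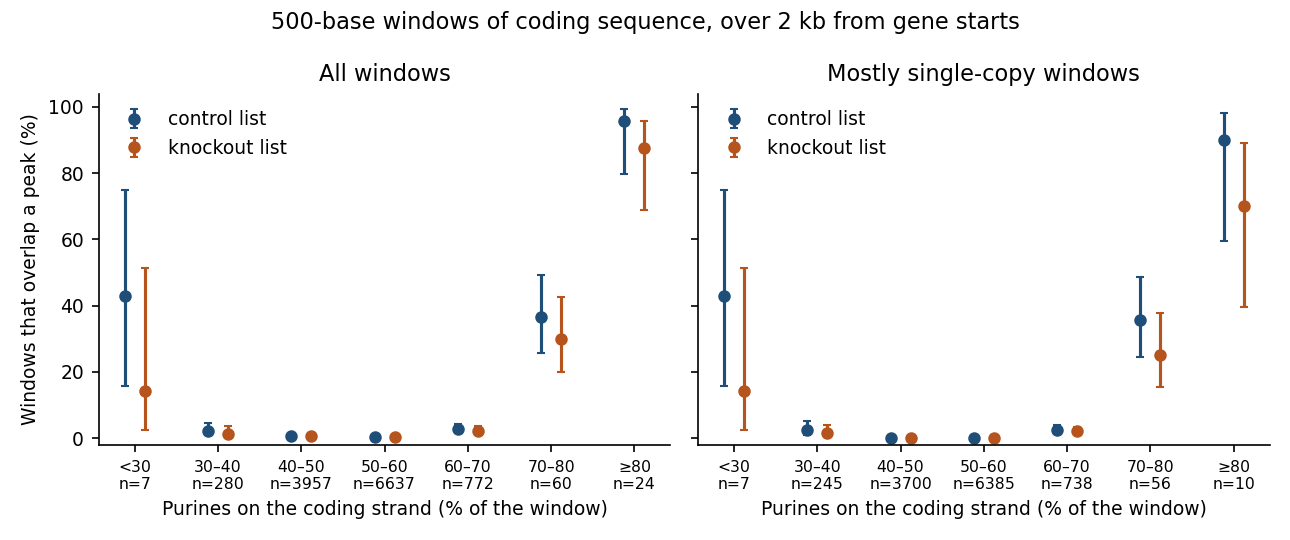
Percent of 500-base coding windows that overlap a peak (y axis) by the purine share of their coding strand (x axis, with the number of windows), for the control list (blue) and the ERCC6L2-/- list (orange), with 95% Wilson intervals as bars. The left panel holds all windows, the right panel those in which less than 50% of 50-base words recur in the genome, and in both the share is at most 2.85% between 30% and 70% purines and highest at 80% or more, while the bin under 30% holds 7 windows, of which 3 overlap a control peak.

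By gene, 54 genes had a window with at least 70% purines. Of these, 27 were overlapped there by a control peak, 22 by an ERCC6L2-/- peak and 25 by neither. RPGR had 3 such windows, and all 3 overlapped a peak in each list, as did all 3 of GOLGA6L2, GOLGA6L22 and NEFM. TCHH had 6, of which 2 overlapped a peak in each list, and WDR87 had 5, of which 2 did. Both windows of CALD1 and the single windows of LMOD1 (a smooth muscle leiomodin), ZC3H13, NASP, NSRP1, ERICH3 and PNMA6E overlapped a control peak only. The single windows of GOLGA6L4 and GOLGA6L9 overlapped an ERCC6L2-/- peak only. RP1L1, with 4 such windows of at most 71.8% purines, overlapped a peak in neither. Of these 84 windows, 37 overlapped a peak in both lists, 8 in the control list only, 2 in the ERCC6L2-/- list only and 37 in neither. Over all 11737 coding windows, of any purine share, the same counts were 83, 37, 19 and 11598. The windows and these genes were examined after the peaks had been seen.

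Within a long exon the peaks covered only part of it. In TCHH the 2 lists put their peaks on almost the same start, at base 2518 of 5691 in control and at base 2508 in ERCC6L2-/-, and ended at bases 3850 and 3468. The repeat of 90 bases ran for 766 bases inside both. In IGFN1 the peaks ran from base 3461 to 5572 and from base 3479 to 5451 of an exon of 7539 coding bases. There the repeat of 108 bases filled the whole width of both, about 19.6 units in control. Repeats were sought only inside each peak, so how far this one extends along the exon was not measured. Purines made up 67.2% of both IGFN1 peaks, and glycine 25.7% of the codons. MUC12, a membrane mucin, had 4 peaks in 1 exon of 14889 coding bases, 2 of them the shared pair. A shared peak lay at bases 5675 to 8494 in control and 5647 to 8450 in ERCC6L2-/-, a control-specific peak at bases 9276 to 10129 and a knockout-specific peak at bases 11673 to 12066. Their purine share was even, between 44.6% and 46.8%, and 87.6 to 93.2% of their 50-base words recur in the genome, so the place of a read among the copies is uncertain.

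**Figure D5:**
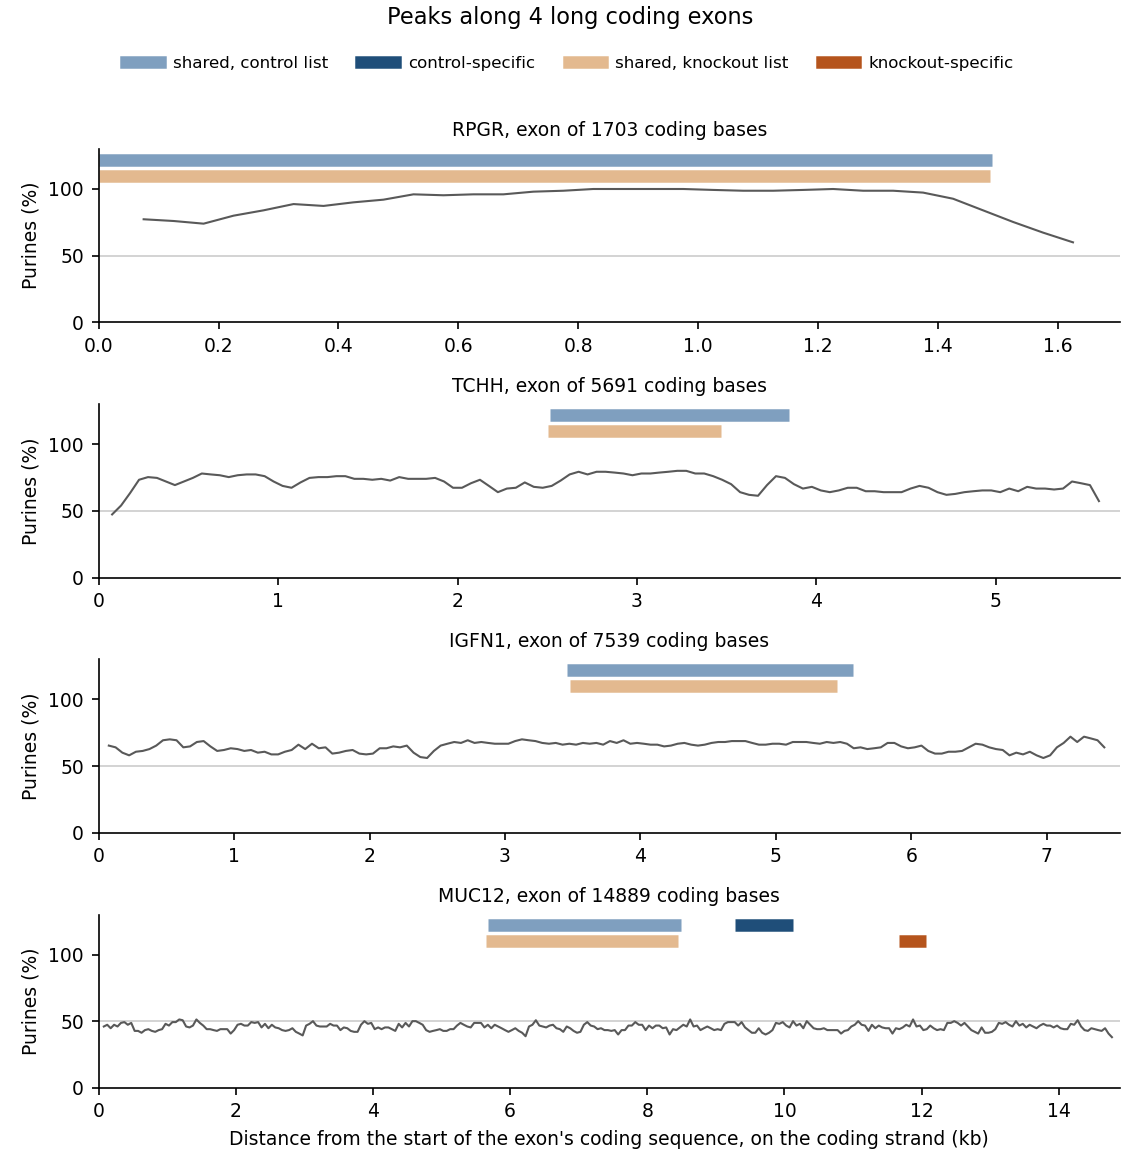
Purine share in windows of 150 bases moved by 50 (grey line, y axis in percent, with a rule at 50%) along the coding sequence of 4 long exons (x axis, distance from the exon's coding start in kb), with control peaks (blue) and ERCC6L2-/- peaks (orange) as bars above and darker bars for list-specific peaks. RPGR is covered from its start to base 1490, TCHH and IGFN1 in their middle, and MUC12 by a shared peak and by 1 peak of each list alone.

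A tandem repeat of any kind was found in 41 of the 90 mostly coding peaks and in 106 of the 309 others. In the control list this was 43.1% of shared and 24.2% of control-specific coding-exon peaks. In the ERCC6L2-/- list it was 40.5% of shared and 35.7% of knockout-specific ones. Peaks in gene bodies without a coding base had higher shares, 63.8% and 44.8% in control and 63.4% and 43.0% in ERCC6L2-/-. These shares were not tested. A coding tandem repeat, with at least 80% identity between neighbouring units and at least 30 coding bases, was found in 40 of the 90 mostly coding peaks and in 2 of the 309 others, which hold few coding bases. The period was a multiple of 3 bases in all 40, so the repeat kept the reading frame. By class, such repeats were in 16 of 137 shared and 4 of 99 control-specific peaks of the control list (11.7% and 4.04%, a difference of -7.64 points, interval -14.5 to -0.308, Fisher's exact p = 0.0559, adjusted p = 0.205). Without chromosome 15, where the golgin-like genes lie, the difference was -0.672 points. In the ERCC6L2-/- list they were in 16 of 121 shared and 6 of 42 knockout-specific peaks (13.2% and 14.3%, Fisher's exact p = 0.800, adjusted p = 1.00).

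Golgin-like genes were the family with the most peaks. Of 29 annotated genes of the golgin A6 and A8 group, which encode coiled-coil proteins and lie largely in segmental duplications, 13 carried 23 peaks, all mostly coding. Their median purine share was 83.1%, and 19 of the 23 were mostly multi-copy. In 10 genes both lists had a shared peak. GOLGA6L25 had 85.0% purines and 37.3% glutamate codons in its control peak, which was 1589 bases wide, and 85.3% and 37.4% in its ERCC6L2-/- peak of 1550 bases. GOLGA6L2 and GOLGA6L7 were the mostly single-copy ones, with 8.07% and 47.1% of words repeated in their control peaks. The GOLGA6L2 control peak had 18.8% glycine codons. Of the list-specific peaks, GOLGA6D was control-specific with 70.5% purines, and GOLGA6L4 and GOLGA6L9 were knockout-specific with 76.6% and 71.4%. In GOLGA6D and GOLGA6L4 100.0% of the words were repeated, and in GOLGA6L9 nearly all, so their place among the copies is uncertain.

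Mucins had peaks on 4 of 20 genes, 8 peaks in all, each mostly coding. Their median purine share was 44.7%. The knockout-specific MUC19 peak was 1164 bases wide with a score of 106, in an exon of 12253 coding bases, with 25.6% glycine and 24.3% threonine codons. The control-specific ZAN peak, in a gene with a mucin-like domain, was 1262 bases wide with a score of 179, and its repeat of 21 bases ran for 1242 bases, with 25.7% threonine and 20.7% proline codons. Of 39 genes of the S100 fused-type and cornified envelope group, TCHH, HRNR (hornerin) and FLG carried 5 peaks. HRNR peaks were 2710 and 3184 bases wide in the control and ERCC6L2-/- lists, with 46.1% and 46.3% purines and 35.9% and 35.7% serine codons. Of their words 83.2% and 85.7% were repeated. The control-specific FLG peak scored 75.8, with 88.1% of words repeated. The widest coding-exon peaks of all lay on EPPK1 (epiplakin), at 6609 bases in control and 8113 bases in ERCC6L2-/-, in an exon of 15264 coding bases with 51.6% and 51.5% purines and 93.3% and 92.9% of words repeated.

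Of all 19962 protein-coding genes 271, or 1.36%, carried a coding-exon peak. Family shares were not adjusted for the number, length or place of a family's coding exons. They can therefore not be ranked against this share or each other. Solute carriers had 17 peaks, the most after the golgin-like genes, on 13 of 373 genes (3.49%). Zinc-finger genes of the C2H2 kind carried peaks on 4 of 633 genes (0.632%), and no difference between classes was detected (1.01% of control-specific against 1.46% of shared control peaks, and 2.38% against 1.65% in the ERCC6L2-/- list, Fisher's exact p = 1.00 in both). Collagens had peaks on 4 of 44 genes (9.09%), homeobox genes on 4 of 123 (3.25%), dynein heavy chains on 1 of 13 (DNAH10), ankyrin, plakin and spectrin genes on 2 of 20 (EPPK1 and SPTBN4) and families of recent segmental duplications in primates on 1 of 126 (FAM90A12P). The peaks of collagens, homeobox genes and DNAH10 were all mostly non-coding, such as those of COL5A3 (647 bases wide) and of the developmental regulators PAX4 (750 bases) and PAX7 (541 bases). No coding-exon peak was found on 416 olfactory receptor genes, 149 keratin and keratin-associated genes, 93 histone genes, 95 cancer-testis genes of the X chromosome, 70 POTE and ANKRD genes, 53 clustered protocadherin genes, 45 ADAM and ADAMTS genes, 19 HLA genes, 17 KIR and LILR genes or 12 laminin genes. These shares were not tested. Family sizes count every annotated gene, also those with no coding sequence more than 2 kb from a gene start.

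NBPF genes, of the neuroblastoma breakpoint family that expanded in primates, had peaks of the other kind. They lay on 5 of 14 genes, 13 peaks in all, and 0 of the 13 were mostly coding while all 13 were mostly multi-copy. In 8 of them a purine run of 42 bases, all of it coding, lay in an exon of 109 or 112 coding bases. NBPF19 had 2 control-specific peaks, at its coding exons 56 and 62, and a knockout-specific peak at coding exon 92, with scores of 223, 193 and 244. The knockout-specific peak lay 23038 bases from the nearest control peak, and 100.0% of the words of all 3 recur in the genome. NBPF26 had 3 shared peaks in the ERCC6L2-/- list, and in the control list 1 shared and 1 control-specific peak.

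The 309 mostly non-coding peaks were another kind of site. They held a median of 54.0 coding bases. A purine tract, a run of at least 30 bases with purines only on one strand, was found in 97 of them, or 31.4%, and only 8 of these tracts reached into coding sequence, all 8 in NBPF genes. Read on the coding strand, 70 of the 97 tracts were pyrimidine runs and 27 purine runs, whereas all 15 tracts of the mostly coding peaks were purine runs. These counts pool both lists, so a tract in a shared locus can count in each. By list, 41 were pyrimidine and 19 purine runs in control, and 29 and 8 in ERCC6L2-/-. The mostly coding peaks had 9 purine runs in control and 6 in ERCC6L2-/-. Strand counts for tracts in gene-body peaks without a coding base are not given here. The lean to pyrimidine runs can therefore not be called particular to the mostly non-coding coding-exon peaks. Among these 309 peaks the longest shared tracts were 224 bases in SLC25A41, a mitochondrial carrier, 206 in C3, the central complement component, 204 in the collagen gene COL25A1 and 177 in PPP2R5E, a phosphatase subunit. Each of these 4 was a pyrimidine run on the coding strand with no coding base. The longest control-specific tracts were 323 bases in PPP1R16B, a phosphatase regulator, 319 in KLK6, a serine protease, 222 in SLC13A3, a carboxylate carrier, 138 in AFM (afamin) and 105 in TMEM143. The longest knockout-specific tracts were 203 bases in OC90, 114 in GRID2IP, 69 in MROH2A and 63 in SEPTIN8. None of these 9 list-specific tracts held a coding base.

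No difference in tracts between the classes passed the test. They were in 33.3% of control-specific and 26.3% of shared control peaks (difference 7.06 points, interval -4.59 to 18.9, Fisher's exact p = 0.250, adjusted p = 0.685). In the ERCC6L2-/- list they were in 23.8% of knockout-specific and 27.3% of shared peaks (difference -3.46 points, interval -16.9 to 12.9, Fisher's exact p = 0.839, adjusted p = 1.00). In gene bodies without a coding base, 38.9% of control-specific and 19.1% of shared control peaks held a tract, and 21.9% of knockout-specific and 18.8% of shared ERCC6L2-/- peaks. Mostly multi-copy sequence was in 9.09% of control-specific and 13.9% of shared control peaks (Fisher's exact p = 0.311, adjusted p = 0.685), and in 16.7% and 19.0% of the ERCC6L2-/- peaks (p = 0.821, adjusted p = 1.00).

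The peaks were spread unevenly over the genome. Chromosome 19 held 62 of the 399, chromosome 1 held 54 and chromosome 15 held 33. On chromosome 15 the golgin-like genes made up 23 of the 33. Chromosome 19, which is dense in genes, had 38 control and 24 ERCC6L2-/- peaks, of which 18 and 5 were list-specific. Of all control and ERCC6L2-/- peaks 33.7% and 19.5% were. Without chromosome 19, 198 of the 236 control coding-exon peaks and 8828 of the 9395 other control peaks remained. In the ERCC6L2-/- list 139 of 163 and 7264 of 7780 remained. Without chromosome 1 the control list kept 205 and 8676, and without chromosome 15 it kept 220 and 9205.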

How the data were processed

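Nascent DNA was sequenced from 3 control and 3 ERCC6L2-/- samples, grouped by their titles. The authors trimmed reads with Trim Galore, aligned them with Bowtie2 to hg38, removed duplicates with Picard, called peaks with MACS2 in each sample and merged the 3 samples of a genotype with MSPC. Versions, thresholds and the handling of reads that fit several places are not given in the sources used here. Such reads can move a peak between copies of a repeated exon. The deposited consensus lists give each peak's start, end and a score, the −log10 of its p-value, which the authors' files write as infinite above the highest finite value of 311. Scores were used only to describe or filter peaks. The lists hold no counts, so depth is unknown, and precision rests on how many peaks were counted. The deposited unique lists held the same 3371 control and 1614 ERCC6L2-/- peaks as those without a base in common with the other list.

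Coding segments came from GENCODE release 44, and sequences from hg38 (pysam 0.24.0, samtools 1.23.1). Peaks off chromosomes 1 to 22 and X were left out. A tandem repeat was a stretch of at least 50 bases with at least 80% identity to the next copy, at periods of 2 to 300 bases. It was sought only within the sequence of each peak. Copies of 50-base words were counted over both strands of the genome, alternate contigs aside, and a peak with at least 50% repeated words was called mostly multi-copy. Families were set by symbol. Shares were compared by Fisher's exact test, two-sided, in scipy 1.17.1 and Newcombe intervals, with Benjamini-Hochberg adjustment over 11 tests, and single shares have Wilson intervals. The measures and tests were tested on simulated data. Named peaks were, per class, the 5 with the most coding bases, the longest coding repeat and the longest purine tract, genes with 3 or more peaks in a list or with list-specific peaks of both lists, and the 2 widest of each family. Genes named in other places were chosen after their values were seen. The rule for the peaks, the lists and the tests were chosen with earlier results of these data known, and the coding windows were added after the peaks were seen. Some stretches of sequence are not reported here.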

Additional observations from a re-analysis of the deposited data

How the results depend on the processing

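No paired analysis was possible because each list merges its 3 samples, and for the same reason no sample could be left out. The tests were instead repeated under 77 planned settings other than left-out chromosomes and with each of 23 chromosomes left out, each judged by its unadjusted Fisher's exact p against 0.05. The excess of control-specific peaks (8.45 points) missed the threshold when peaks near any transcript start were left out (5.26), for canonical transcripts only (6.24), for peaks chained at 10 kb (6.12) and within protein-coding genes (6.02), and was 7.28 to 10.1 points without one chromosome. The excess of knockout-specific peaks (6.45 points) missed it with at least 50 coding bases (4.69), 5 kb from gene starts (6.19), away from all transcript starts (6.35), for canonical transcripts (4.40), with a reciprocal overlap of 50% (5.12), a gap of up to 1 kb (6.25), higher-scoring peaks (6.03) and chained peaks (5.86). It was 5.10 to 7.89 points without one chromosome, and missed the threshold for 12 of the 23.

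The difference in coding-exon share between list-specific peaks (0.331 points) turned to -0.0224 away from transcript starts, -1.28 for single-copy peaks and -1.96 within genes, with 0.0409 to 0.628 without one chromosome. The control tract difference passed at tracts of at least 20 bases (13.3 points, Fisher's exact p = 0.0485). The control repeat difference passed with a reciprocal overlap of 50% (-8.28, Fisher's exact p = 0.0323) and without any of 7 chromosomes, with a range of -9.36 to -0.672. In the ERCC6L2-/- list the tract difference turned to 3.24 with higher-scoring peaks (range without one chromosome -5.57 to 0.556), the repeat difference to -1.32 with periods divisible by 3 only (-1.48 to 4.65), and the multi-copy difference to 2.85 and 1.99 at 10% and 90% of repeated words (-5.02 to -1.20). The zinc-finger differences ranged from -1.54 to 0.318 in control and -1.94 to 1.71 in ERCC6L2-/-. The other ranges were 4.28 to 9.35 for control tracts and -6.66 to -0.538 for control multi-copy sequence. The cause of these changes was not tested.

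Under settings added after the data were seen, the share of coding windows with at least 70% purines that overlapped a peak (53.6% control, 46.4% ERCC6L2-/-) was 37.7% and 31.9% with 300-base windows, 62.5% and 58.3% with 1000-base windows, 43.9% and 31.8% in mostly single-copy windows, 31.0% and 23.8% with higher-scoring peaks only, and 95.8% and 87.5% at a minimum of 80% purines.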
